A study of Mus musculus with 4 samples.

Results

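Slpi encodes secretory leukocyte protease inhibitor, a small secreted protein of whey acidic protein (WAP) domains, and was 1 of the 32287 features counted in popliteal lymph nodes (PLNs), the nodes that drain the mouse ankle and foot. The gene was taken by its symbol (identifier ENSMUSG00000017002), and it was selected on earlier results of these same libraries: its level per capture area, its split between rim and interior, its rise over immunoglobulin-rich spots and its spot correlations. Those values are therefore given as a description and without a test. Each library was a Visium capture area, a grid of barcoded spots that takes up RNA from the section laid over it, where unique molecular identifiers (UMIs) let every RNA copy enter the count a single time. All mice were male C57BL/6. The WT area held 10 PLNs of 5 wild-type mice aged 5.5 months. The Early area held 6 PLNs of 3 TNF-Tg mice of the same age, which carry a TNF transgene and develop inflammatory-erosive arthritis. The Advanced 1 and Advanced 2 areas each held 6 PLNs of 3 TNF-Tg mice aged 8.5 to 9 months with advanced disease. The promoter that drives the transgene is not given in the sources used here. Evan's blue dye was injected into the hindpaw of all groups to find the nodes, and the labels do not tie spots to single nodes or mice. WT and Early had 1 area each, and genotype cannot be told apart from the area in WT, nor disease stage from age in Advanced.

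SLPI blocks serine proteases that granulocytes and mast cells release, among them neutrophil elastase, cathepsin G, chymase and tryptase, and it is known for limiting tissue damage at mucosal surfaces and in inflamed tissue. Epithelial cells, neutrophils and macrophages are its best known sources. It also binds progranulin, which it shields from elastase, and it dampens the response of macrophages to bacterial products. In a lymph node, plasma cells gather in the medullary cords beside sinuses lined by macrophages, so that a spot, which covers several cells, can hold RNA of both. For this reason more cells of a type and more RNA per cell cannot be told apart in these data.

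On GRCm38 the annotated gene spans chromosome 2, bases 164354070 to 164389095, on the minus strand, and is protein coding with 3 transcripts. The 250 bases before the RefSeq start (chr2:164356508-164356757, minus strand, GRCm38.p6) are shown because Slpi moved with genes of antibody secretion in these spots. This window lies inside the annotated span, whose upstream end on the minus strand is base 164389095. The RefSeq start used here is thus not the outermost annotated one. A CACGTG E-box, in capitals, starts 146 bases before the start.
Slpi promoter: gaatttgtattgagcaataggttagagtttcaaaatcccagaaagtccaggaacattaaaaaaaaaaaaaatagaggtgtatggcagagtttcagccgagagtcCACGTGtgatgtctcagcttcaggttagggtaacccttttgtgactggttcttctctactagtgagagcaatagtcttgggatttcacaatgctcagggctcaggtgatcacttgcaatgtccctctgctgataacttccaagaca
The same 6 letters, which read alike on both strands, occurred in 6.02% of 32851 mouse promoters of this length. Searched on both strands, GACGTG and GACGTCA, which 5.20% and 2.78% of those promoters held, were not in this window. Of 13 plasma cell genes matched to the promoter table, 1 held CACGTG, namely Derl3, which serves in the disposal of misfolded proteins. These letters describe the window only.

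The libraries differed in size and depth. WT had 833 spots and 1808678 UMIs, Early 1489 spots and 5180493 UMIs, Advanced 1 2015 spots and 3378219 UMIs, and Advanced 2 1782 spots and 3198238 UMIs. Median depth per spot was 282 UMIs in WT, 414 in Early, 287 in Advanced 1 and 398.5 in Advanced 2, so spots with at least 500 UMIs (356, 707, 803 and 815 in the same order) were used for shares and correlations. Rim spots, those with fewer than 6 tissue neighbours on the grid, were much deeper than interior ones, with a median of 3166 against 140.5 UMIs in WT and of 5541 against 156 in Early. The tissue label held at the level of its markers, since the B cell gene Cd79a, the sinus macrophage gene Marco and the T cell gene Trac were detected in every area, and of 7 epithelial genes Krt5, Krt14 and Krt19 were at 0 UMIs in all 4 while Epcam, the most abundant, had 23, 53, 31 and 34 UMIs and Cdh1 4, 5, 12 and 8 in WT, Early, Advanced 1 and Advanced 2, with Krt8 and Krt18 at no more than 4 in any area.

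Slpi was far higher in WT than in any TNF-Tg area. The WT area held 10504 Slpi UMIs, Early 604, Advanced 1 1063 and Advanced 2 522. Per 10000 UMIs these counts correspond to 58.1 in WT (57.0 to 59.2), 1.17 in Early (1.07 to 1.26), 3.15 in Advanced 1 (2.96 to 3.34) and 1.63 in Advanced 2 (1.5 to 1.78), where the ranges are exact 95% Poisson intervals that cover counting error only. WT thus exceeded Early 49.8-fold, Advanced 1 18.5-fold and Advanced 2 35.6-fold. The 3 TNF-Tg areas lay close together by comparison, and the Advanced mean was 2.39 ± 1.07 (SD, n = 2), with Advanced 1 being 2.70-fold and Advanced 2 1.40-fold above Early. Between both Advanced areas the gap was 1.93-fold, so that the step from Early to Advanced 2 was smaller than that between replicates. Without the 10 highest spots of each area this turned, with 1.69-fold from Early to Advanced 2 and 1.26-fold between the Advanced areas. In array columns below 64 the levels were 1.55 in Early, 1.86 in Advanced 1 and 1.02 in Advanced 2, and in the other columns 0.626, 4.11 and 2.30, so that the order of Early and Advanced 2 depended on the part of the section.

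Slpi ranked 4th of the non-immunoglobulin genes in WT by UMIs, against ranks 1428, 383 and 877 in Early, Advanced 1 and Advanced 2. Of 10680 non-immunoglobulin genes with at least 100 UMIs over all areas, 2 were more than 10-fold higher in WT than in every other area. These were Slpi and C6, a component of the complement membrane attack complex, which was 14.2-fold higher than in the next area. A further 3 genes passed 5-fold. They were Ccl9, a chemokine, Cd209f, a C-type lectin of the DC-SIGN family, and Cbr2, a carbonyl reductase, and they were 5.29, 5.21 and 6.46-fold higher. In spots with at least 500 UMIs, 77.2% carried a Slpi UMI in WT, 30.1% in Early, 27.4% in Advanced 1 and 27.5% in Advanced 2. After each of these spots was thinned to 500 UMIs the shares were 48.3%, 5.09%, 7.60% and 7.12%. The thinned order puts Early below the Advanced areas, which the unthinned shares do not.

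**Figure D1:**
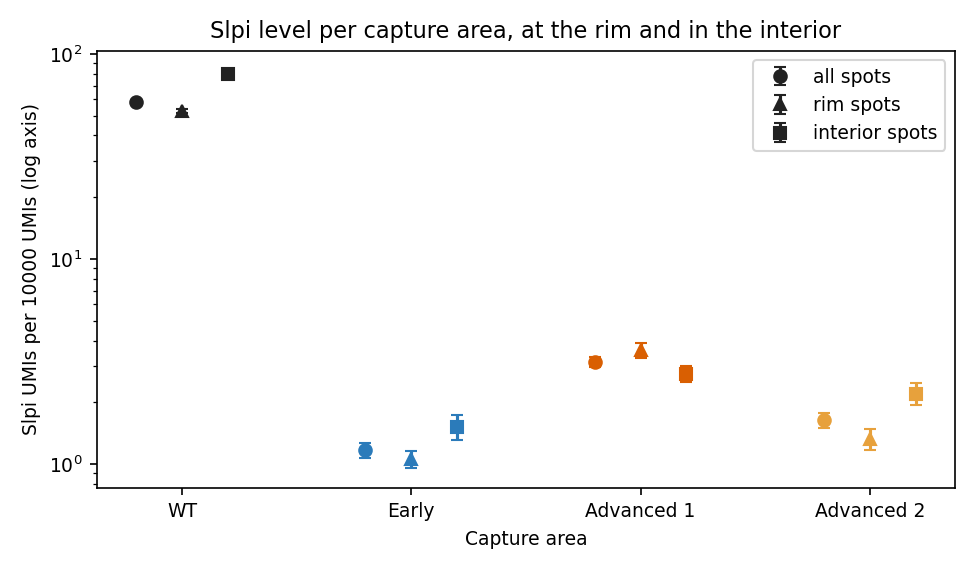
Slpi UMIs per 10000 UMIs on a log axis for each capture area, over all spots (circles), rim spots (triangles) and interior spots (squares), with exact 95% Poisson intervals as bars. WT sits at 58.1 over all spots, and the other 3 areas between 1.17 and 3.15.

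The WT signal was concentrated at one end of the section. A single rim spot held 1852 Slpi UMIs, and the 10 spots of highest count held 58.8% of the Slpi in that area, all of them within 8 grid steps of the top spot. Early's highest spot held 60 UMIs, that of Advanced 1 164 and that of Advanced 2 15, and their 10 highest spots held 31.8%, 47.1% and 17.8% of Slpi. Without the 10 highest spots of each area the levels were 27.8 in WT, 0.825 in Early, 1.76 in Advanced 1 and 1.40 in Advanced 2 per 10000 UMIs. Removing every spot within 10 steps of the highest one, a patch of 125 spots that held 75.0% of WT Slpi, left 19.2 in WT against 1.08, 2.75 and 1.71 in the others. WT then exceeded Early 17.8-fold, Advanced 1 6.96-fold and Advanced 2 11.2-fold.

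Cut into strips of 16 array columns, the WT section was low at one end and high at the other. The 6 strips held 4.29, 7.09, 5.78, 50.2, 65.7 and 166 Slpi UMIs per 10000 from low to high column number. Strips ranged from 0.218 to 2.50 in Early, from 0.329 to 5.54 in Advanced 1 and from 0.513 to 3.91 in Advanced 2. The lowest WT strip therefore fell inside the Advanced 1 range, although it lay above every strip of Early and Advanced 2. Per 1000 immunoglobulin UMIs the WT strips held 9.23 to 116 Slpi UMIs. On this scale too the lowest WT strip fell inside the Advanced 1 range, 1.43 to 12.9. It lay above every strip of Early (at most 5.05) and Advanced 2 (at most 2.68). Ighg1, an IgG heavy chain gene, was 6.5 UMIs per 10000 in the first of the same WT strips and 246 in the last, while Jchain, which joins IgA and IgM into polymers, was uneven, at 8.16, 19.8, 7.11, 12.1, 12.7 and 27.3. Marco, a scavenger receptor of sinus macrophages, was 17.0 in the first strip and 48.4 in the last. Whether that end of the WT section was a single node, mouse or part of a node was not tested.

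Early split into 4 pieces of tissue with 0.193, 0.309, 1.32 and 1.45 Slpi UMIs per 10000 in 79, 158, 313 and 924 spots, a 7.51-fold range within 1 area. The pieces of Advanced 2 held 1.01 and 1.77, and WT and Advanced 1 each formed a single piece of at least 20 spots.

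Barcodes repeat between arrays, so the positions of the WT peak were examined in the other libraries. Of the 50 WT spots highest in Slpi, 28 positions lay under tissue in Early, 45 in Advanced 1 and 42 in Advanced 2, where they held 4, 0 and 4 Slpi UMIs. The level there was 0.861 against 1.17 per 10000 elsewhere in Early, and 1.74 against 1.63 in Advanced 2. In Advanced 1 a count of 0 allows at most 3 UMIs.

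**Figure D2:**
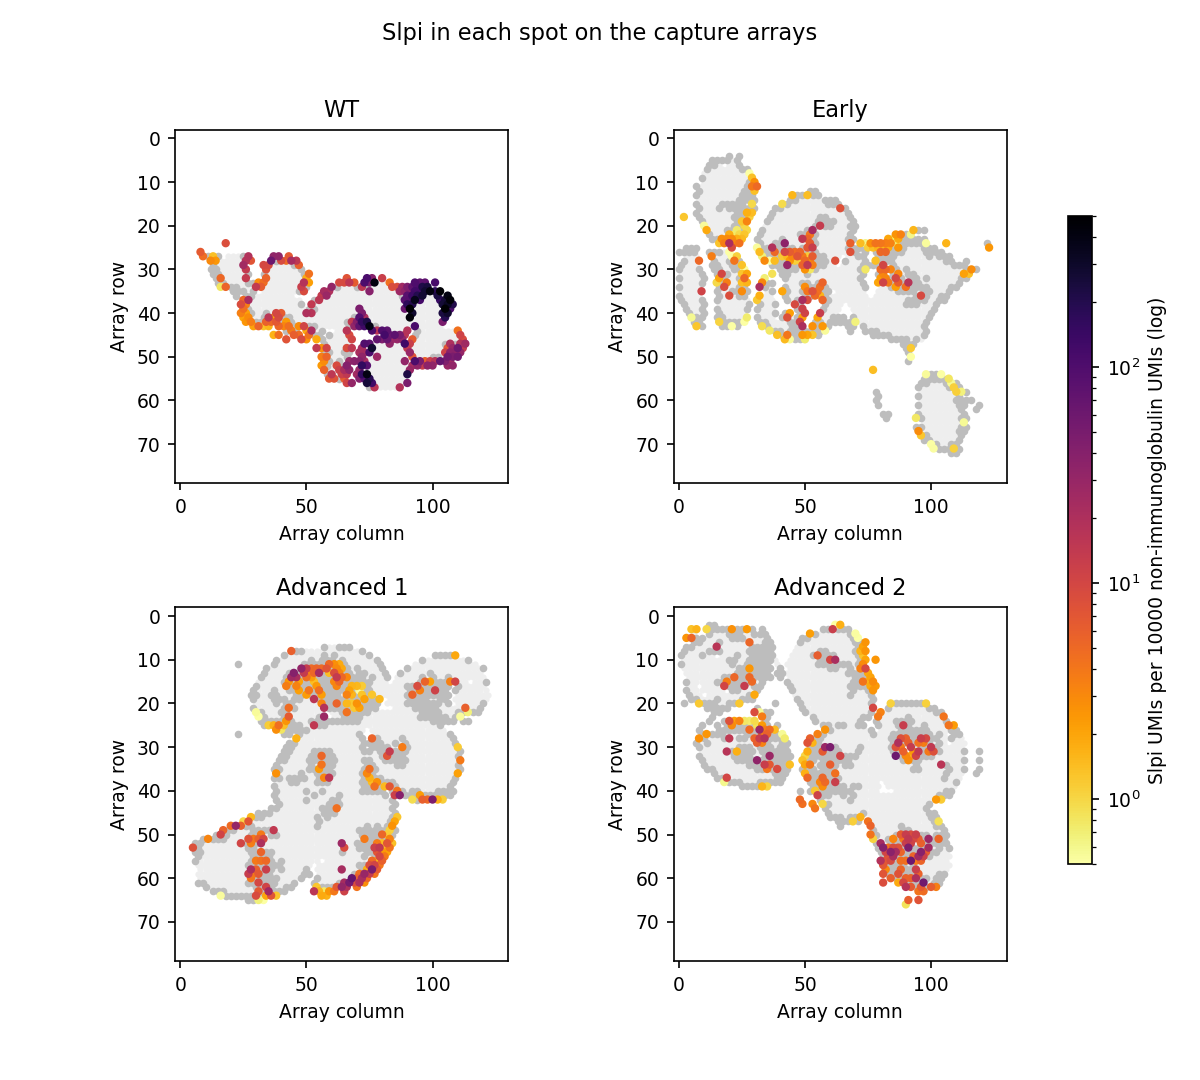
Position of every tissue spot on the 4 capture arrays by array column and row. Pale grey spots had fewer than 500 UMIs, darker grey spots had at least 500 UMIs and no Slpi, and coloured spots show Slpi UMIs per 10000 non-immunoglobulin UMIs on a log scale, with the darkest colours at the high-numbered columns of the WT array.

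Slpi was lower at the rim than inside in 3 of the 4 areas. Rim and interior refer to the outline of all tissue spots and not to single nodes, which joined into a single main piece in WT and Advanced 1. It was 52.4 per 10000 at the rim and 79.9 in the interior of WT, 1.06 and 1.51 in Early, and 1.32 and 2.20 in Advanced 2, while Advanced 1 had 3.58 at the rim and 2.75 inside. The log2 ratio of rim to interior was -0.61, -0.52, 0.38 and -0.74 in WT, Early, Advanced 1 and Advanced 2, with a mean of -0.37 ± 0.51 (SD, n = 4). The mean was smaller than the spread between areas. With an alternative definition of the rim the log2 ratios were -0.20, -1.03, 1.18 and -0.71 in the same order. Their mean was -0.19 ± 0.98. Without the 10 highest spots of each area the log2 ratio by the first definition was below 0 in all 4, from -1.21 in WT to -0.04 in Advanced 1. Immunoglobulin share was also lower at the rim, at 7.89% against 9.23% in WT and 3.69% against 4.80% in Early. It was 5.50% against 6.29% in Advanced 1 and 7.10% against 9.41% in Advanced 2. In the highest of 5 groups by this share, Slpi was lower at the rim in WT (209 against 229) and Advanced 2 (4.72 against 6.76). It was higher there in Early (5.40 against 3.65) and Advanced 1 (13.1 against 9.09).

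Rim and interior did differ in other genes when tested over the 4 areas with area as a block (edgeR quasi-likelihood test, Benjamini-Hochberg adjusted p under 0.05). Of 11675 non-immunoglobulin genes, 4.14% were higher and 3.49% lower at the rim. The numbers depended on the areas used. The 890 calls fell to 408 without Early, 535 without Advanced 1 and 272 without Advanced 2, and rose to 1119 without WT. Leaving out an area also leaves fewer degrees of freedom. Of the plasma cell genes, none of 14 tested was higher and 2 were lower, the transcription factor Irf4 by 0.63 ± 0.12 (SE) and the chaperone Creld2 by 0.42 ± 0.13 on the log2 scale (adjusted p = 0.00197 and 0.0425). Neither was called in spots with at least 500 UMIs or without Advanced 2. Values for Jchain (-0.09 ± 0.11), Mzb1 (0.03 ± 0.12) and Xbp1 (-0.04 ± 0.11) did not pass. Genes of fat and capsule (5 of 10 higher, none lower), led by Adipoq, an adipocyte hormone, at 2.97 ± 0.31, rose at the rim. B follicle genes (6 of 10 higher) also rose, with Cxcl13, the chemokine that draws B cells into follicles, at 0.99 ± 0.13, although 2 B follicle genes were called without Early or Advanced 2. Of 16 macrophage genes tested, 2 rose, Lyz2 by 0.85 ± 0.11 and Siglec1 by 0.60 ± 0.14, although without WT 2 were higher and 5 lower, and Marco (-0.39 ± 0.17, adjusted p = 0.167) did not pass. T cell genes were lower at the rim in 5 of 10, with Cd8a at -0.73 ± 0.13 (2 without Advanced 2, 7 without WT), and neutrophil genes higher in 2 of 13, Mmp9 and Cxcr2. Of dendritic cell, lymphatic endothelial and signal genes 1 each was lower, of 8, 9 and 8, and none of the mast cell, epithelial, protease or partner genes passed. Each of these counts of 1 was 0 without Advanced 2. The dendritic cell count was also 0 without Advanced 1. Lymphatic endothelial and signal counts were 0 without Early, and 4 and 2 without WT.

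Other protease inhibitors included several that were higher at the rim. Of 22 tested, 7 were higher and 1 was lower, with Serpina1e, an alpha-1-antitrypsin gene that has near-identical copies whose reads may be split, at 1.06 ± 0.25, Serpina3n at 0.59 ± 0.11, and Cst7, a cystatin of cytotoxic cells, at -0.94 ± 0.18. Cst3, the most abundant inhibitor, was 0.47 ± 0.11 higher (adjusted p = 0.0121). Without Advanced 2, 2 inhibitors were higher, and 4 without Early or Advanced 1. Of the WAP family, Wfdc17, which is known in macrophages, was 0.65 ± 0.14 higher (adjusted p = 0.00674), a call that was lost without Advanced 1.

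Slpi rose steeply with the immunoglobulin share of a spot in every area. Spots with at least 500 UMIs were ranked within each area by the share of their UMIs from 393 immunoglobulin genes and cut into 5 groups of near equal size. Slpi was then expressed per 10000 non-immunoglobulin UMIs, so that immunoglobulin itself could not dilute it. From the lowest to the highest group it was 2.83, 6.09, 13.6, 44.9 and 215 in WT. It was 0.293, 0.512, 0.505, 1.21 and 4.77 in Early, 0.459, 0.489, 1.07, 2.05 and 10.9 in Advanced 1, and 0.419, 0.511, 0.891, 2.05 and 5.73 in Advanced 2. The highest group exceeded the lowest 76.0-fold in WT, 16.3-fold in Early, 23.8-fold in Advanced 1 and 13.7-fold in Advanced 2. Without the 10 highest spots of each area the folds were 37.1, 9.94, 11.3 and 11.8, and with every spot thinned to 500 UMIs 33.7, 10.2, 8.10 and 8.34. In WT the highest group held 75.2% of Slpi in 22.7% of the non-immunoglobulin UMIs, and in Early, Advanced 1 and Advanced 2 it held 61.1%, 78.2% and 54.7% of Slpi in 15.8%, 24.9% and 17.3% of them. In the values given first, the groups rose in order from low to high in all areas except for the second and the third group of Early, whose values differed by less than their counting error.

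**Figure D3:**
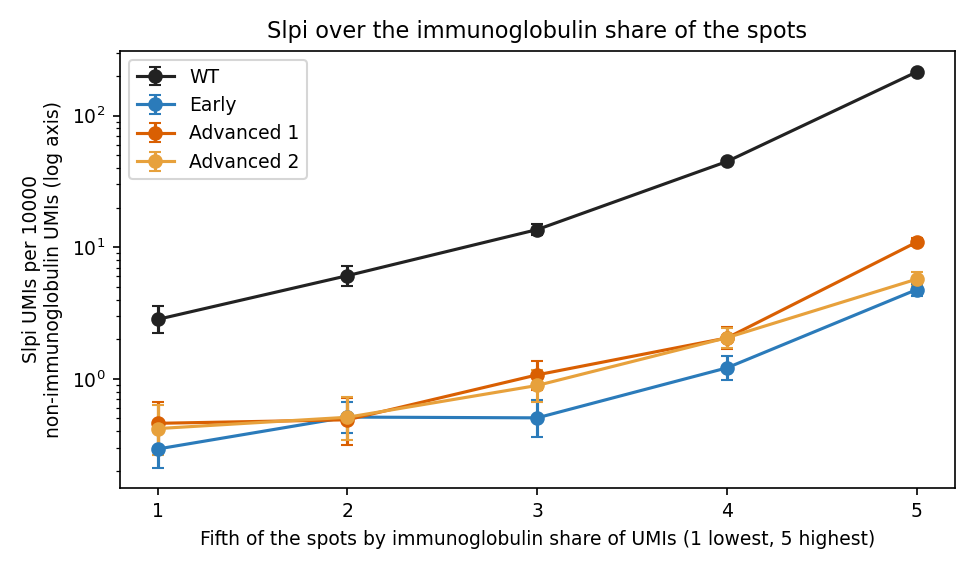
Slpi UMIs per 10000 non-immunoglobulin UMIs on a log axis for 5 groups of spots ranked by immunoglobulin share, lowest to highest, in each capture area, with exact 95% Poisson intervals. The lines climb in all 4 areas, from 2.83 to 215 in WT and from 0.293 to 4.77 in Early, and WT lies above the other areas throughout.

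The gap between WT and the TNF-Tg areas was present at equal immunoglobulin share. In spots with 1 to 2% immunoglobulin, Slpi was 3.10 in WT, 0.373 in Early, 0.459 in Advanced 1 and 0.300 in Advanced 2 per 10000 non-immunoglobulin UMIs. In spots with 10 to 20% it was 134, 6.48, 11.7 and 3.78. Among spots with 20 to 40%, where only WT and Advanced 2 had at least 20 spots, it was 325 and 8.29. The low-column end of the WT array, with columns below 64, also lay above the other areas in share classes that were set within each area. The gap there was much smaller in the highest class only. When the spots of each area were cut into 3 groups by immunoglobulin share, the lowest group at that end of WT had 2.98 (2.43 to 3.61) against 0.258 to 0.495 at either end of the other areas. The highest group there had 14.9 (12.9 to 17.1, 20 spots) against 1.88 to 9.98. These groups were not matched in share. Immunoglobulin was 1.56% of UMIs in the lowest group at that end, against 1.61 to 2.76% at either end of the other areas. In the highest group it was 13.9% against 8.09 to 17.0%. Over the whole WT section the lowest group had 3.38 and the highest 140.

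By size, the fitted log2 difference of Slpi between the most and least immunoglobulin-rich of these 3 groups, 4.05, ranked 1st of 10759 non-immunoglobulin genes, ahead of Jchain at 3.73. Slpi was chosen for this pattern, so no test is attached. The next were Cacna1h, a calcium channel subunit, at 3.59, Bhlha15, a transcription factor of secretory cells, at 3.48, and Prg2, an eosinophil granule protein, at 3.23, which are named here for their rank. Without WT the Slpi difference was 3.46.

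Genes known for antibody secretion shared this direction and were tested on the same split, with area as a block. In this comparison 5.76% of the 10759 genes were higher and 4.62% lower in immunoglobulin-rich spots (edgeR). All 15 plasma cell genes tested were higher, with a median log2 difference of 1.46 against -0.0042 over all genes. The spots were split by immunoglobulin RNA, which plasma cells make, so the direction of these genes was built into the split. Their calls describe the split and are no separate evidence on Slpi. Jchain was 3.73 ± 0.15 higher (adjusted p = 1.24e-17), Tnfrsf17, the survival receptor BCMA, 3.16 ± 0.62 (adjusted p = 0.000712) and Eaf2, a transcription elongation factor, 2.89 ± 0.28 (adjusted p = 8.99e-09). Xbp1, which drives the secretory programme, was 1.46 ± 0.16 higher (adjusted p = 1.87e-07) and Mzb1, a chaperone of antibody assembly, 1.01 ± 0.17 (adjusted p = 0.000139). The plasma cell count was 11 with DESeq2, and 11 to 14 when 1 area was left out. A list of B follicle genes went the other way, with 10 of 10 lower, among them Cr2, the complement receptor CD21, at -1.75 ± 0.16.

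Macrophage and neutrophil genes moved with immunoglobulin as well. Of 16 macrophage genes tested, 10 were higher and 1 was lower. Adgre1, which encodes the F4/80 antigen, was 1.30 ± 0.19 higher, Mrc1, the mannose receptor, 1.1 ± 0.15, and Marco 0.88 ± 0.11 (adjusted p = 1.12e-06), whereas Lyz2, the macrophage and granulocyte lysozyme, was lower at -0.69 ± 0.13. Of 12 neutrophil genes tested, 9 were higher and 1 was lower. The granule genes Mmp8, Ngp and Camp were 3.16 ± 0.76, 2.45 ± 0.21 and 2.39 ± 0.24 higher, S100a8 2.09 ± 0.14 and S100a9 1.85 ± 0.18. Mmp8 had only 49 UMIs over all areas together, so its size is uncertain. Cxcr2, a chemokine receptor of mature neutrophils, was lower at -0.91 ± 0.22. In interior spots alone, a split added after the data had been seen, 10 of 13 plasma cell genes, 3 of 9 neutrophil genes and none of 16 macrophage genes were called higher, against 39 of 7672 genes in all. Of those macrophage genes 14 still had a difference above 0, with a median of 0.52 (0.79 over all spots), so the lost calls do not show that the difference was absent. The fitted Slpi difference in those interior spots was 3.83, and 4.15 in rim spots alone.

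Tissue beyond the immune cells also moved with the split. Capsule and fat genes were higher in 10 of 10, led by Lum, a collagen-binding proteoglycan, at 1.95 ± 0.17, and lymphatic endothelial genes in 7 of 9, led by Reln at 1.54 ± 0.24. T cell genes were higher in 5 of 10, with Cd8b1 at 0.86 ± 0.19 (but -0.058 in interior spots alone), and dendritic cell genes higher in 2 and lower in 1 of 8. The T cell count was 0 without Early, with DESeq2 and in interior spots alone, 1 without Advanced 1, 2 without Advanced 2 and 8 without WT, and no dendritic cell gene was called without Early or with DESeq2. None of 6 mast cell genes passed, nor did the single epithelial gene tested. Without Advanced 1, 1 mast cell gene was called higher, and without Early 1 was called lower. In interior spots alone 1 of 8 capsule and fat genes and 2 of 9 lymphatic endothelial genes were called higher. The part of these cell types in the Slpi difference was not tested.

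Of the WAP family, 2 of 13 other members listed passed the filter on low counts, and both were higher in immunoglobulin-rich spots, Wfdc21 by 1.57 ± 0.34 (adjusted p = 0.0018) and Wfdc17 by 1.06 ± 0.21 (adjusted p = 0.000986). The Wfdc17 call was lost without WT, with DESeq2 and in interior spots alone, where Wfdc21 was not tested. Wfdc17, the most abundant of them, had 520, 266, 274 and 161 UMIs in WT, Early, Advanced 1 and Advanced 2, and Wfdc12, Wfdc15b, Wfdc16 and Eppin had 0 in all 4 areas. Other protease inhibitors were higher in 6 and lower in 2 of 20, with Serpinf1 at 1.46 ± 0.18 and Serpinb1a, an inhibitor of neutrophil proteases, at -0.51 ± 0.14. The higher count was 2 without Early or Advanced 2, 4 without Advanced 1 and 0 of 14 in interior spots alone. Among the proteases that Slpi can block, 0 of 4 tested passed, and Mcpt4, a mast cell chymase and the most abundant of them, differed by -0.09 ± 0.17 (adjusted p = 0.807). Of these proteases 1 was called higher without Advanced 1 and 1 lower without Early. Elane, neutrophil elastase, was below the filter with 3, 1, 7 and 9 UMIs in WT, Early, Advanced 1 and Advanced 2.

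Of the reported binding partners, Anxa2, a membrane-binding annexin, was 0.74 ± 0.14 higher and Grn, progranulin, 0.44 ± 0.12 higher (adjusted p = 0.000529 and 0.013), and the other 2 did not pass. Without WT, Early or Advanced 2, 1 partner was called. Signals and receptors known to induce Slpi were mixed, with Il1b (1.08 ± 0.24), Cd14 (0.94 ± 0.25) and Tlr2 (0.70 ± 0.18) higher and Tnf lower at -0.98 ± 0.27, out of 7 tested. Without Advanced 2 none of these 4 was called, nor in interior spots alone, and without WT 1 was higher and 1 lower. Tgfb1, the most abundant of the signals, did not pass (0.00 ± 0.14, adjusted p = 0.999).

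Spot by spot, Jchain was the gene outside the immunoglobulin genes whose pattern was most like that of Slpi. The immunoglobulin genes Igkc, Ighg2c and Ighg2b, left out of the ranking below, had higher mean r with Slpi than Jchain, at 0.529, 0.466 and 0.466. Correlations were computed within each area on log2(UMIs per 10000 non-immunoglobulin UMIs + 1) over spots with at least 500 UMIs, and they are descriptive, since spots share a library, a depth and their neighbours. Pearson r with Jchain was 0.558 in WT, 0.351 in Early, 0.462 in Advanced 1 and 0.351 in Advanced 2. Among 3484 non-immunoglobulin genes with at least 100 UMIs in every area, ranked by their mean r over the 4 areas, Jchain (0.431) was followed by the endoplasmic reticulum chaperone Hsp90b1 (0.287), Xbp1 (0.261), Creld2 (0.249), the chemokines Ccl8 (0.238) and Cxcl12 (0.233), the lipid carrier Apoe (0.230), Ly6c2 (0.224), the chaperone Hspa5 (0.219) and the acute-phase gene Saa3 (0.218). The median r of all ranked genes was 0.044 and the 99th percentile 0.179. Cr2 was near the bottom at -0.117. With every spot thinned to 500 UMIs, mean r with Jchain was 0.198.

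For the summed lists, mean r was 0.356 for plasma cell genes (0.274 to 0.523 over the areas), 0.220 for sinus macrophage genes (0.122 to 0.300), 0.216 for capsule and fat genes and 0.206 for neutrophil genes (0.097 to 0.390). It was 0.138 for lymphatic endothelial, 0.083 for T cell, 0.076 for dendritic cell, 0.072 for mast cell and 0.043 for epithelial genes, and -0.134 for B follicle genes. The sign differed between areas for T cell genes (-0.068 in WT to 0.203 in Early) and epithelial genes (-0.027 in Early to 0.120 in Advanced 1). Single markers varied within a list, with Marco at 0.218 and Lyz2 at 0.029, and S100a8 at 0.190 and S100a9 at 0.172. Mzb1 was at 0.215, from 0.053 in Early to 0.421 in WT. The macrophage and neutrophil values are weak correlations in sparse counts, and after thinning to 500 UMIs the macrophage list was at 0.093 and the neutrophil list at 0.113 (-0.0024 to 0.279 over the areas), which turns their order.

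**Figure D4:**
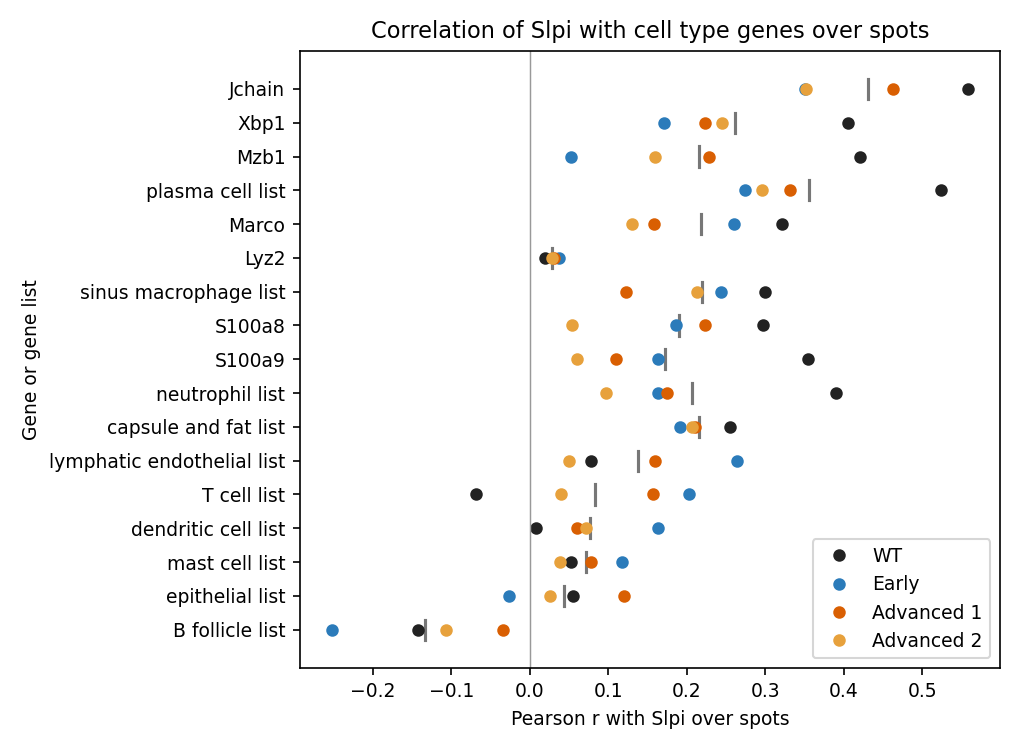
Pearson r between Slpi and single genes or summed gene lists over spots with at least 500 UMIs, with 1 point per capture area and a grey bar at the mean of the 4. Jchain lies farthest to the right with a mean of 0.431, and the B follicle list lies below 0 in all 4 areas.

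Spots were also split by both immunoglobulin share and macrophage level. At low macrophage level, spots above the area's median immunoglobulin share had 22.7-fold more Slpi than those below it in WT, 6.23-fold in Early, 12.9-fold in Advanced 1 and 7.58-fold in Advanced 2. At high macrophage level the folds were 18.0, 5.97, 9.48 and 5.75. Spots above the median macrophage level exceeded those below it by 1.68, 2.00, 1.18 and 1.64-fold where immunoglobulin was low, and by 1.33, 1.92, 0.863 and 1.24-fold where it was high. These folds are not on a common footing, since Slpi was selected for its rise with immunoglobulin and the immunoglobulin classes lay farther apart: at low macrophage level immunoglobulin was 2.03% and 13.9% of UMIs in WT, whereas at low immunoglobulin the macrophage list was 88.8 and 214 per 10000 non-immunoglobulin UMIs.

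Slpi was also measured in immunoglobulin-rich spots in which 14 of the 17 listed neutrophil genes were at 0 UMIs. In the highest of the 5 share groups, spots with 0 UMIs of these 14 genes had 177 Slpi UMIs per 10000 non-immunoglobulin UMIs in WT, 3.87 in Early, 4.89 in Advanced 1 and 7.59 in Advanced 2, from 17, 64, 34 and 90 spots. Spots of the same group with such a UMI had 218, 4.98, 11.3 and 5.06. The spots without such UMIs were shallower, with a median of 1072 against 4434 UMIs in WT, so that a low neutrophil level could be missed there, and Lcn2, Csf3r and Mmp9 were not part of the 14. The part of neutrophils in the Slpi level was not tested. The neutrophil list as a whole amounted to 7.15, 5.62, 12.7 and 6.98 UMIs per 10000 in WT, Early, Advanced 1 and Advanced 2, with S100a9 as its most abundant gene in each, and the 10 highest Slpi spots held 156, 31, 255 and 26 UMIs of S100a8 and S100a9 together. Elane, with 20 UMIs in all areas together, was at 0 in those spots.

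Slpi fell off within a few steps of the immunoglobulin-rich spots. Slpi had been selected for its rise with the immunoglobulin share that sets these spots, so the fall restates that selection in space. Taking the 10% of spots with the highest share as the core, Slpi was 280 per 10000 non-immunoglobulin UMIs in the core of WT, 124 at 1 step, 46.5 at 2 steps, 24.2 at 3 to 4 steps, 16.1 at 5 to 8 and 4.10 at 9 or more. The core and first step were 5.99 and 1.83 in Early, 12.4 and 1.88 in Advanced 1, and 8.14 and 2.83 in Advanced 2. The fall over the first step was thus 2.26-fold in WT, 3.27-fold in Early, 6.59-fold in Advanced 1 and 2.88-fold in Advanced 2. Immunoglobulin share itself fell 2.19, 3.39, 2.68 and 2.37-fold over that step in the same order. Jchain fell 2.58, 4.07, 3.82 and 2.80-fold over the same step, whereas Marco was higher at 1 step than in the core, with core to first step ratios of 0.584, 0.686, 0.762 and 0.633. Farther out the fall was not steady in the TNF-Tg areas, where Advanced 1 rose again to 3.02 at 5 to 8 steps.

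**Figure D5:**
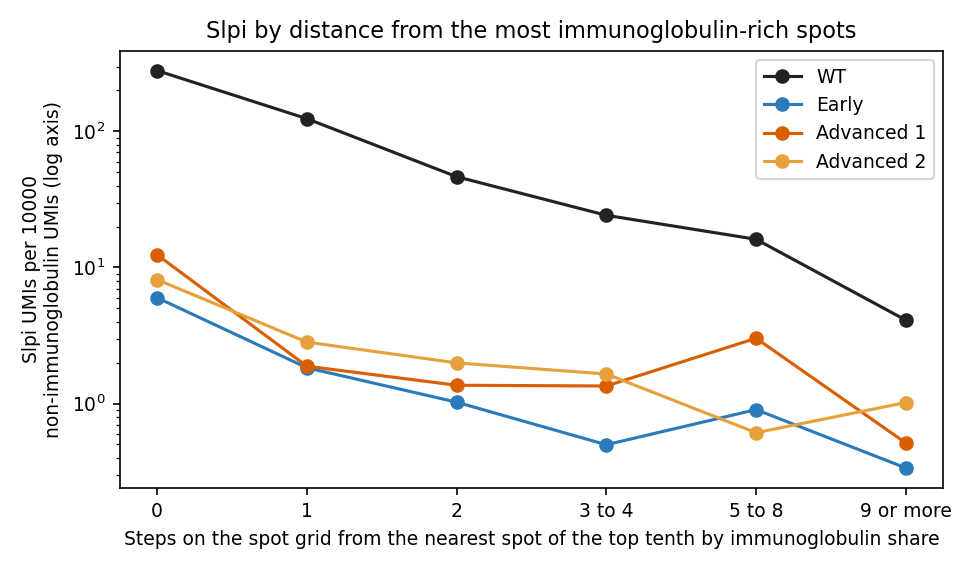
Slpi UMIs per 10000 non-immunoglobulin UMIs on a log axis against the number of grid steps from the nearest spot of the 10% richest in immunoglobulin, in each capture area. WT falls from 280 to 4.10, and the TNF-Tg areas fall over the first step and are uneven beyond it.

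Between conditions, 12 of 17 macrophage genes were lower in Advanced than in WT (4 with DESeq2) and 6 of 14 neutrophil genes were higher in Advanced than in Early (1 with DESeq2). In the fit of whole-area sums only the 2 Advanced areas give the spread, which leaves 1 residual degree of freedom, and the single WT and Early areas are assumed to vary like them. The calls of these comparisons therefore rest on that assumption, and no p is given for a single gene. The fitted Slpi log2 difference was 0.95 for Advanced against Early and -4.72 for Advanced against WT. In Advanced against WT, 0.733% of 13102 genes were higher and 1.34% lower. The macrophage genes included Slc40a1, the iron exporter ferroportin, at -2.14 ± 0.23 and Marco at -0.80 ± 0.13, and 1 was higher, Lyz2, at 0.63 ± 0.12. Of 15 plasma cell genes, 3 were lower, Fkbp11 at -1.59 ± 0.33, Creld2 at -0.88 ± 0.20 and Jchain at -0.59 ± 0.14, none of which was called with DESeq2. Wfdc17 was also lower in Advanced, at -2.24 ± 0.19. DESeq2 called 33 genes in place of 272, with Wfdc17, Slc40a1 and Adgre1 among them and Jchain not.

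With DESeq2 none of the protease, mast cell, signal, inhibitor, neutrophil, T cell or capsule and fat calls that follow was made. By edgeR the proteases that Slpi blocks were lower in Advanced than in WT in 3 of 5 tested, the mast cell genes Tpsb2 (-1.18 ± 0.23), Cma1 (-0.82 ± 0.21) and Mcpt4 (-0.80 ± 0.20), which are also the 3 of 8 mast cell genes called lower. Il1b and Cd14 were lower at -1.02 ± 0.25 and -1.20 ± 0.32, of 8 signals and receptors tested. Other protease inhibitors were lower in 2 of 23, Timp1 (-1.39 ± 0.41) and Cst3 (-0.51 ± 0.15). Timp1 was 0.216 per 10000 UMIs in WT, 0.139 in Advanced 1 and 0.0375 in Advanced 2, so that most of its difference lay in Advanced 2. Neutrophil genes were higher in 2 of 14, Camp at 1.31 ± 0.28 and Ltf at 1.18 ± 0.33, where Ltf was 0.177 per 10000 UMIs in WT, 0.622 in Advanced 1 and 0.244 in Advanced 2 and so rests mostly on Advanced 1, and S100a8 (0.35 ± 0.19) and S100a9 (0.19 ± 0.18) did not pass. B follicle genes were higher in 3 of 10 (2 with DESeq2), with Cr2 at 1.58 ± 0.22. Lower were 4 of 9 lymphatic endothelial genes (1 with DESeq2), 3 of 10 capsule and fat genes and 2 of 10 T cell genes, and none of 8 dendritic cell, 2 epithelial or 4 partner genes passed.

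In Advanced against Early, 0.496% of genes were higher and 0.664% lower. None of 15 plasma cell genes passed, and Jchain was at 0.42 ± 0.15. The 6 neutrophil genes that were higher included Camp, the cathelicidin precursor, at 2.40 ± 0.27, Ltf at 1.87 ± 0.30 and Mpo at 1.79 ± 0.45. Ltf was 0.112 UMIs per 10000 in Early against 0.622 and 0.244 in the Advanced areas. The Mpo value rests on Advanced 1, with 0.0444 UMIs per 10000 in Early, 0.272 in Advanced 1 and 0.0532 in Advanced 2. Macrophage genes were lower in 3 of 17, Cd14, Lyz2 and Hmox1, and higher in 1, Cd5l, which was 0.884 per 10000 UMIs in Early, 0.876 in Advanced 1 and 2.46 in Advanced 2 and so was higher in Advanced 2 alone. Hmox1 was 1.58 in Early, 0.604 in Advanced 1 and 1.30 in Advanced 2 per 10000 UMIs, so that most of its fall lay in Advanced 1. Marco was at -0.35 ± 0.13 and did not pass. Capsule and fat genes were higher in 3 and lower in 1 of 10, lymphatic endothelial genes higher in 2 of 9, B follicle genes lower in 2 of 10, and 1 of 8 signals was lower, Cd14. None of the 3 WAP family, 5 protease, 4 partner, 10 T cell, 8 dendritic cell, 8 mast cell or 2 epithelial genes passed. DESeq2 called 7 genes in place of 152, Camp among them, and no macrophage, capsule and fat or signal gene. The fitted difference of Slpi rests on 2 Advanced areas that were 1.93-fold apart.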

How the data were processed

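PLNs were cryosectioned at 10 um, placed on 1 slide with 4 capture areas, permeabilized for 12 min and sequenced as Visium libraries. The deposited values are UMI counts per gene and tissue spot, which the authors made with Space Ranger 1.1.0 on GRCm38 (mm10), per the submitters' processing notes, and did not normalize. Spot positions came from the deposited array coordinates. Samples were grouped by their titles. Areas held 1808678 to 5180493 UMIs, and all intervals cover counting error only. The gene and all gene lists were chosen with earlier results of these data known.

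Counts were summed over spots with Python 3.11.15 and scaled per 10000 UMIs, or per 10000 non-immunoglobulin UMIs where spots were ranked by immunoglobulin. Genes other than Slpi were tested with edgeR 4.0.16 (R 4.3.3) on sums per area (rim and interior, or the lowest and highest of 3 groups by immunoglobulin share, with area as block, and whole areas for conditions), after filterByExpr and TMM, with adjusted p under 0.05. DESeq2 1.42.0 was an alternative. The fits were first tested on simulated data with known changes. P-values rest on the spread between areas of pooled mice, with the spread of each gene moderated by that of the other genes. A p-value can therefore be small although few areas inform the gene's own spread. Named genes are Slpi, the 10 genes most like it, and of each list up to 3 called per direction by size, the most abundant gene and genes at 0, with Jchain, Mzb1, Xbp1, Marco, Lyz2, S100a8, S100a9 and Elane throughout. Others were named after their values were seen. Promoter sequence is from RefSeq. No protein sequence was used here. One listed gene is not reported here.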

Additional observations from a re-analysis of the deposited data

How the results depend on the processing

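The alternatives that left out spots at the WT peak, split the arrays by column or restricted the immunoglobulin split of all genes to the rim or interior were chosen after seeing the data. Slpi levels are compared as the mean log2 ratio over the 2 Advanced areas. WT over Advanced was 4.68 ± 0.67 and fell to 3.14 without the spots within 10 steps of the highest and to 1.98 in array columns below 64. Advanced over Early was 0.96 ± 0.67, but -0.16 in columns below 64 and 2.29 in the rest, so that its direction depended on the part of the section. Thinning each spot to 500 UMIs took mean r with Jchain from 0.431 to 0.198 and with macrophage genes from 0.220 to 0.093. The log2 difference between the highest and lowest share group was 4.66 ± 1.11, and 3.62 to 4.80 under the settings tried other than leaving out an area, including thinning, rim spots only and interior spots only. Leaving out an area gave 4.13 to 4.95, and -0.62 to -0.25 for the rim, where the mean was -0.37. The alternative definition of the rim gave a mean of -0.19 ± 0.98.

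DESeq2 called 419 genes in place of 890 for the rim, 437 in place of 1117 for immunoglobulin-rich spots, 7 in place of 152 for Advanced against Early and 33 in place of 272 for Advanced against WT. Rim calls were 536 in spots with at least 500 UMIs, and 272 to 1119 when an area was left out. Immunoglobulin calls were 74 in interior spots alone, and 624 to 897 when an area was left out, being 624 without Early and 669 without Advanced 2. Of 730 refits of 106 gene and comparison pairs, 571 kept the direction and the call and 158 lost the call. In 1, Cd8b1 in interior spots alone, the direction turned, to -0.058 from 0.86. Leaving out an Advanced area leaves no residual degree of freedom for the condition fits, so this was not run. No paired analysis was possible because the groups share fewer than 2 replicate numbers, which concerns the comparisons between conditions. The rim and immunoglobulin comparisons were made within areas, with area as a block. Spots in the interior held few UMIs, which limits what can be said of Slpi there. The causes of these shifts were not tested.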

Other observations

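The antibody classes differed between areas. Ighg1 held 83.0 UMIs per 10000 in WT, 4.88 in Early, 16.5 in Advanced 1 and 18.6 in Advanced 2, and was thus, like Slpi, highest in WT and lowest in Early. Ighg2b, the most abundant heavy chain gene in WT, was 181 in WT, 39.8 in Early, 99.6 in Advanced 1 and 195 in Advanced 2, and Ighm, the IgM heavy chain, was 71.7, 75.9, 79.6 and 114. Slpi per 1000 immunoglobulin UMIs was 71.1 in WT, 2.94 in Early, 5.32 in Advanced 1 and 2.06 in Advanced 2, so that its excess in WT was larger than that of immunoglobulin, which made up 8.16%, 3.96%, 5.91% and 7.92% of the UMIs. Per 100 Jchain UMIs the Slpi counts were 380, 15, 32.1 and 13.5. With 1 WT area, these values describe that section.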
